A study of Saccharomyces cerevisiae with 6 samples.

Results

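The genes described here encode the thioredoxin, glutaredoxin and peroxidase systems of budding yeast, together with the superoxide dismutases, the glutathione enzymes, the enzymes that repair oxidized proteins and the regulators Yap1 and Skn7. They were taken by gene symbol from the deposited count table, and all 38 were found among its 7127 features. By the main site of each product, 19 members were placed in the cytosol, 8 in mitochondria, 3 in the nucleus and 3 in the secretory pathway, and 5 were kept apart because their product is found in several places or is less clearly placed.

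The data are 6 poly(A) RNA libraries of *Saccharomyces cerevisiae*, with 3 made from young WT cells and 3 from aged WT cells. All came from the prototrophic strain CGY4.51, with the genotype given as MAT@, and all cells were grown in synthetic complete medium. Young cells were sampled in exponential growth, and aged cells after 24 h in ministat aging devices (MADs), chambers in which bead-labelled mother cells are kept on magnets while flowing medium carries their daughters away. Each library is a biological replicate, and the labels give young and aged replicates of the same number a shared batch. Age and the culture system cannot be told apart, because no young cells were held in the device in these libraries.

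Superoxide dismutases convert superoxide to hydrogen peroxide, and peroxiredoxins and glutathione peroxidases reduce the peroxide in turn. Peroxiredoxins draw electrons from thioredoxins, which thioredoxin reductases keep reduced with NADPH. Glutaredoxins draw theirs from glutathione, which glutathione reductase keeps reduced, also with NADPH. Cytosol and mitochondria hold separate sets of these enzymes, mostly encoded by different genes. Yap1 is the main activator of the peroxide response in yeast. Oxidation keeps it in the nucleus, where it acts on some promoters together with Skn7.

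The Yap1 recognition element was looked for because many of the members are textbook Yap1 targets. In the 400 bases before the start codon, the letters TTACTAA, read on both strands and so also as TTAGTAA, were present for 14 of 38 members (36.8%) and for 581 of 5988 yeast promoters (9.7%). The 8 windows shown here belong to the 7 of these 14 members that were called with a log2 fold change of at least 0.5 in size in aged cells. Each is read 5′ to 3′ on the strand of the gene from the RefSeq R64 genome, the build named for the deposited counts, with the element in capitals.
TRX2 (chrVII:913427-913455, minus strand, 217 bases before the start codon): tgtttatactcTTAGTAAaggatgctccc
TRX2 (chrVII:913391-913419, minus strand, 181 bases before): tggctcttttcTTACTAAgcgcgttcagt
GPX2 (chrII:707257-707285, plus strand, 260 bases before): tatctagacaaTTAGTAAttccgatgaca
GRX4 (chrV:539411-539439, minus strand, 260 bases before): ttcgtgaaattTTAGTAAgagcgcgcgtt
SOD1 (chrX:623146-623174, minus strand, 149 bases before): gtgtgtcggaaTTAGTAAgcggacatccc
GRX2 (chrIV:1470862-1470890, plus strand, 144 bases before): tagcagaactaTTACTAAgatccgatatt
GTT1 (chrIX:424661-424689, minus strand, 165 bases before): gctacggccatTTACTAAtgattttcacc
SRX1 (chrXI:277969-277997, plus strand, 301 bases before): tttttccctgaTTAGTAAgctacatcatt
Of these genes, TRX2, GPX2, GRX4, SOD1 and GRX2 fell in aged cells, and GTT1 and SRX1 rose. A match of letters is a description of the window and not a measured binding site.

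Across the system, increases and decreases were nearly equal in number. In aged cells 14 of 38 members were higher and 15 were lower at an adjusted p under 0.05 (edgeR quasi-likelihood F-test, Benjamini-Hochberg adjustment over all features tested), and 9 were not called. All 38 passed the filter on low counts. Of the 6755 features tested, 4288 (63.5%) were called, 2207 higher (32.7%) and 2081 lower (30.8%). The median log2 fold change of the members was -0.04, against 0.02 for all features. The groups did not overlap in 33 of 38 members, 17 with aged cells above and 16 below, against 70.1% of all features. Leaving out aged replicate 3 reduced the members called higher to 9, and the share of all features called higher from 32.7% to 27.5%. With libraries scaled by total counts alone, without the TMM (trimmed mean of M-values) factor that corrects for composition, 23 members were higher and 6 lower, against 68.7% and 8.32% of all features, while the median log2 fold change of all features moved to 0.54 and that of the members to 0.48. With an offset for GC content, 10 were higher and 21 lower, against 27.5% and 32.8% of all features. Of the 14 members with the Yap1 element TTACTAA 5 rose, 5 fell and 4 were not called, and of the 24 without it 9 rose, 10 fell and 5 were not called. Those without it include TSA2, GPX1, TRR1 and GSH1, which have a second Yap1 element, TGACTAA. That second element was present for 5 of 38 members (13.2%), SRX1 among them, and for 294 of 5988 promoters (4.9%). A stress response element (AGGGG) was present for 17 members (44.7%) and for 28.9% of promoters.

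The 9 members that were not called, SOD2, CCS1, CCP1, TSA1, TRX3, GRX1, GRX3, OYE2 and OYE3, gained calls under other scalings. Total-count scaling called SOD2 (0.78), CCS1 (0.53), CCP1 (0.49), TSA1 (0.47), GRX1 (0.70), GRX3 (0.31) and OYE2 (0.65) higher. The GC offset called CCS1 (-0.32), CCP1 (-0.39), TSA1 (-0.39), TRX3 (-0.56), GRX3 (-0.30) and OYE3 (-0.57) lower. These members had no call in the main test, which does not show that they did not change.

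**Figure D1:**
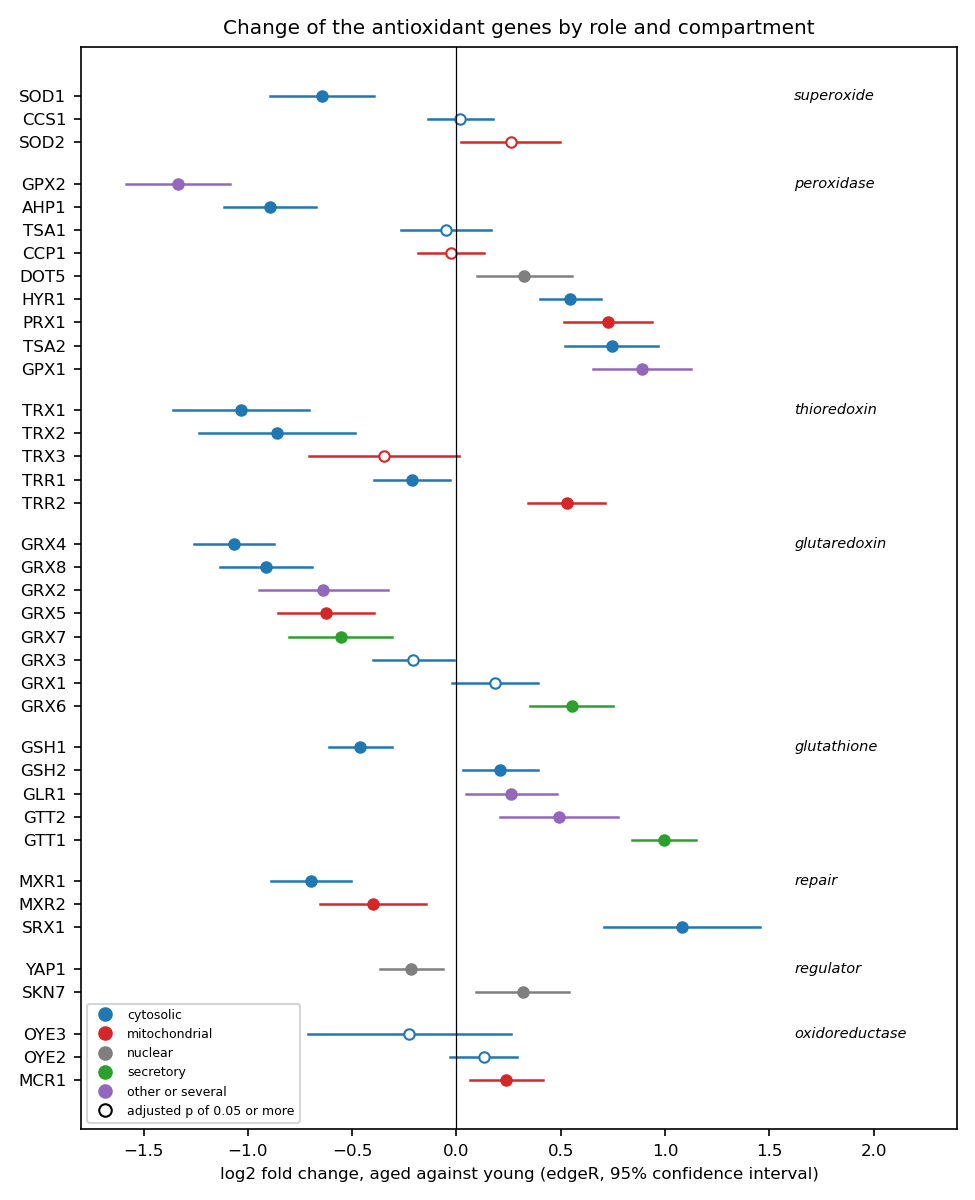
Log2 fold change of each of the 38 members in aged against young cells with its 95% confidence interval, by role and coloured by compartment. Filled points are members called at an adjusted p under 0.05. The values run from -1.33 for GPX2 to 1.08 for SRX1. The thioredoxin and glutaredoxin genes lie mostly to the left of 0, with medians of -0.35 and -0.59. Total-count scaling moved these medians to 0.18 and -0.07 and that of all features from 0.02 to 0.54.

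The changes that held in direction and call under all 15 alternatives tried fell on 14 genes. TSA2, PRX1, GPX1, HYR1, TRR2, GRX6, GTT1 and SRX1 were the 8 higher genes. AHP1, GPX2, TRX1, TRX2, GRX4 and GRX8 were the 6 lower genes. Among all features tested, 19.5% were higher and 8.11% lower under every alternative. The higher genes include a reserve peroxiredoxin, the mitochondrial peroxiredoxin and the mitochondrial thioredoxin reductase. The lower genes include both cytosolic thioredoxins.

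**Figure D2:**
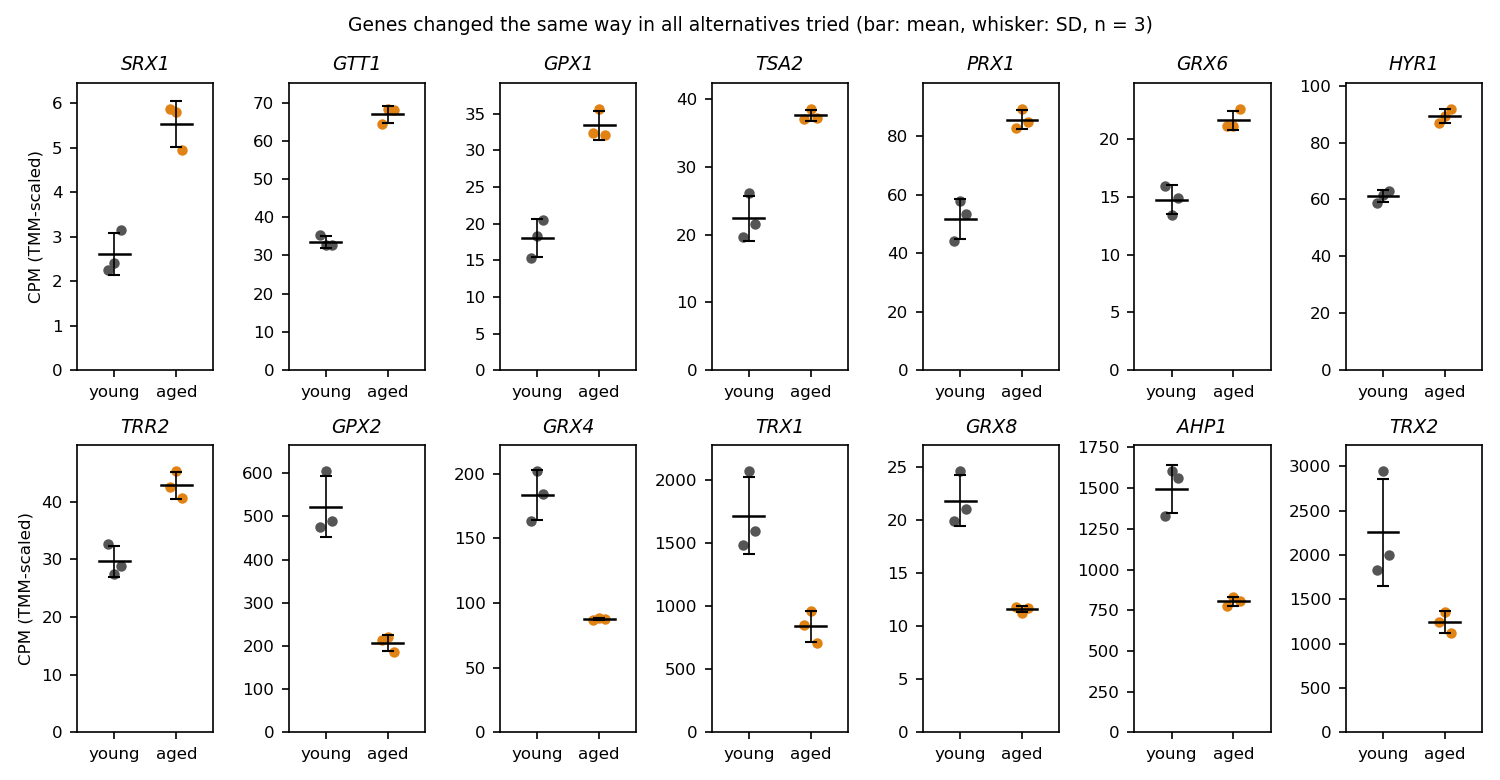
Level in CPM (counts per unit of library size, scaled with TMM, on a linear axis from 0) in each of the 3 young and 3 aged libraries for the 14 members that kept their call and direction, with the mean as a bar and the SD as a whisker. Points of the young and aged libraries do not overlap in any panel, as for TRX1 with young libraries from 1487 to 2067 CPM and aged libraries from 711 to 959 CPM.

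The cytosolic superoxide dismutase fell, and the mitochondrial enzyme was not called. SOD1 (chrX:622550-623014), the copper-zinc enzyme, stood at 1042, 1320 and 1178 CPM in young replicates 1 to 3 and at 714, 841 and 714 CPM in aged replicates 1 to 3. Every aged library lay below every young library, and the log2 fold change was -0.64 (SE 0.11, adjusted p = 0.000654). With total-count scaling it was -0.12 and no longer called (adjusted p = 0.225). SOD2 (chrVIII:122889-123590), the manganese enzyme of the matrix, stood at 125, 169 and 160 CPM in young and at 174, 190 and 180 CPM in aged libraries. All aged values lay above the young ones, but the log2 fold change of 0.26 (SE 0.11) missed the threshold with an adjusted p of 0.0546. With the shared batch as a replicate block it was called higher (0.27, adjusted p = 0.00494), and with the GC offset it was -0.10. CCS1, the chaperone that inserts copper into Sod1, had a log2 fold change of 0.02 (95% confidence interval -0.14 to 0.17) and was not called.

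Among the 9 peroxidases, 5 rose, 2 fell and 2 were not called, against 32.7% higher and 30.8% lower of all features. The largest change was in GPX2 (chrII:707528-708016), a phospholipid hydroperoxide glutathione peroxidase. It stood at 476, 604 and 488 CPM in young and at 214, 221 and 187 CPM in aged libraries. Its aged level was 0.397 of the young level, a log2 fold change of -1.33 (SE 0.11, adjusted p = 7.49e-06). GPX1 (chrXI:389380-389883), a relative of GPX2, moved the other way. Its levels were 15.3, 18.3 and 20.5 CPM in young and 32.4, 35.6 and 32.1 CPM in aged libraries, a log2 fold change of 0.89 (SE 0.11, adjusted p = 5.82e-05). HYR1 (chrIX:423128-423619), the third gene of this family, encodes the thiol peroxidase that passes the peroxide signal to Yap1. It rose from 58.9, 61.4 and 63.1 CPM in young to 86.8, 89.2 and 91.8 CPM in aged libraries (log2 fold change 0.55, SE 0.07, adjusted p = 6.16e-05). Per kilobase of coding sequence, GPX2 remained the highest of the family in aged cells, at 424 CPM per kb against 181 for HYR1 and 66.3 for GPX1.

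Of the peroxiredoxins, AHP1 was called lower, TSA2, PRX1 and DOT5 were called higher, and TSA1 was not called. AHP1 (chrXII:368781-369311), the alkyl hydroperoxide reductase, stood at 1329, 1603 and 1561 CPM in young and at 777, 831 and 808 CPM in aged libraries. The aged libraries lay close together and well below the lowest young library, with a log2 fold change of -0.89 (SE 0.10, adjusted p = 4e-05). TSA1 (chrXIII:220138-220728), the major cytosolic peroxiredoxin, overlapped between groups, at 835, 973 and 965 CPM in young and 836, 893 and 949 CPM in aged libraries (log2 fold change -0.05, 95% confidence interval -0.27 to 0.16). It was called lower with the GC offset (-0.39, adjusted p = 0.00642) and higher with total-count scaling (0.47, adjusted p = 0.000666). TSA2 (chrIV:1365072-1365662), its paralog known as inducible by stress, rose from 19.6, 26.2 and 21.6 CPM to 37.1, 38.6 and 37.3 CPM (log2 fold change 0.75, SE 0.10, adjusted p = 0.000128). TSA2 made up 2.37 ± 0.22% of the summed TSA1 and TSA2 level per kb in young and 4.06 ± 0.25% in aged cells (SD, n = 3), so the pool stayed almost wholly TSA1. Between the coding sequences of this pair, 78.5% of positions were identical, the highest of the 16 paralog pairs aligned, and the longest identical run was 14 bases. PRX1 (chrII:100371-101156), the mitochondrial peroxiredoxin, rose from 44.2, 57.7 and 53.4 CPM to 82.9, 89.3 and 84.8 CPM (log2 fold change 0.73, SE 0.10, adjusted p = 0.000106). Its lowest aged library lay above its highest young library. CCP1, the cytochrome c peroxidase of the intermembrane space, overlapped between groups (log2 fold change -0.03, 95% confidence interval -0.19 to 0.13), and was called lower with the GC offset (-0.39, adjusted p = 0.000990) and higher with total-count scaling (0.49, adjusted p = 0.000924). DOT5, the nuclear peroxiredoxin, was called higher by 0.33 on the log2 scale, a call lost without young replicate 3 (adjusted p = 0.0539), aged replicate 2 (0.0504) or aged replicate 3 (0.0535).

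Both cytosolic thioredoxins fell, TRX1 to 0.489 and TRX2 to 0.551 of the young level. TRX1 (chrXII:231702-232013) stood at 1487, 2067 and 1598 CPM in young and 850, 959 and 711 CPM in aged libraries, a log2 fold change of -1.03 (SE 0.15, adjusted p = 0.000179). TRX2 (chrVII:912913-913227), the thioredoxin gene with a pair of Yap1 elements shown earlier, stood at 1826, 2942 and 1996 CPM in young and 1247, 1362 and 1120 CPM in aged libraries, a log2 fold change of -0.86 (SE 0.17, adjusted p = 0.00128). Young replicate 2 was the highest library for each gene, and no aged library reached the lowest young one. These were the most abundant transcripts of the system per kb, and together they went from 12661 ± 2896 to 6639 ± 782 CPM per kb (SD, n = 3), 0.524 of the young level. TRR1 (chrIV:1183299-1184258), the cytosolic thioredoxin reductase, stood at 428, 477 and 459 CPM in young and 375, 408 and 392 CPM in aged libraries. It was called lower by a small margin (log2 fold change -0.21, SE 0.08, adjusted p = 0.0406), and the call was lost without young replicate 2 or 3 or any of the aged replicates (adjusted p up to 0.172). With total-count scaling it turned to 0.30.

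In mitochondria the thioredoxin reductase rose. TRR2 (chrVIII:325598-326626) stood at 32.6, 27.5 and 28.9 CPM in young and 42.6, 45.2 and 40.6 CPM in aged libraries (log2 fold change 0.53, SE 0.08, adjusted p = 0.000347). TRX3 (chrIII:259578-259961), the thioredoxin it reduces, stood at 63.1, 108 and 90.7 CPM in young and 65.3, 77.5 and 62.7 CPM in aged libraries. Its groups overlapped through young replicate 1, and the log2 fold change of -0.35 (SE 0.16) was not called (adjusted p = 0.0843). It was called lower with the replicate block (-0.32, adjusted p = 0.00352) and without young replicate 1 (-0.55, adjusted p = 0.000683), and with total-count scaling it was 0.18.

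Of the 8 glutaredoxins, 5 fell, 1 rose and 2 were not called, against 30.8% lower and 32.7% higher of all features. The median log2 fold change of the family was -0.59, against 0.02 for all features. With total-count scaling the family median was -0.07 and that of all features 0.54. In that setting 3 glutaredoxins were called higher and 2 lower, against 68.7% and 8.32% of all features. GRX4 (chrV:538434-539168), a monothiol glutaredoxin that takes part in iron sensing, stood at 163, 202 and 185 CPM in young and 86.8, 88.4 and 87.4 CPM in aged libraries, a log2 fold change of -1.07 (SE 0.09, adjusted p = 5.81e-06). Its paralog GRX3 (chrIV:644178-644930), which shares that role, stood at 197, 243 and 224 CPM in young and 188, 197 and 191 CPM in aged libraries. GRX3 was not called (log2 fold change -0.21, SE 0.09, adjusted p = 0.0616), though it was called lower with the replicate block (adjusted p = 0.0241). The coding sequences of this pair were identical at 68.5% of positions, with no shared run above 21 bases. GRX8 (chrXII:854062-854391), a cytosolic dithiol glutaredoxin of low abundance, fell from 19.9, 24.6 and 21.0 CPM to 11.9, 11.3 and 11.7 CPM (log2 fold change -0.91, SE 0.10, adjusted p = 3.51e-05). The aged values of GRX4 and GRX8 were close to each other across replicates, and the young values were more spread.

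GRX5 (chrXVI:444579-445031), the mitochondrial monothiol glutaredoxin of iron-sulfur cluster assembly, stood at 243, 305 and 280 CPM in young and 172, 198 and 167 CPM in aged libraries (log2 fold change -0.63, SE 0.10, adjusted p = 0.000467). GRX2 (chrIV:1471017-1471448), a dithiol glutaredoxin with cytosolic and mitochondrial forms, stood at 147, 216 and 225 CPM in young and 123.8, 131.2 and 123.2 CPM in aged libraries (log2 fold change -0.64, SE 0.14, adjusted p = 0.00242). GRX2 shares 47 bases with EMI1 on the opposite strand, whose own log2 fold change was -0.25, and the strand setting of the counting is not given in the sources used here. GRX1, the other dithiol form, was not called (log2 fold change 0.18, SE 0.09, adjusted p = 0.106), but was called higher with the replicate block (0.18, adjusted p = 0.0462). With total-count scaling neither GRX5 (-0.11) nor GRX2 (-0.11) was called.

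The pair of glutaredoxins in the early secretory pathway separated. GRX6 (chrIV:432330-433025) rose from 15.9, 13.5 and 14.9 CPM to 21.2, 21.1 and 22.6 CPM (log2 fold change 0.55, SE 0.09, adjusted p = 0.000414). GRX7 (chrII:266725-267336) fell from 354, 443 and 367 CPM to 260, 295 and 238 CPM (log2 fold change -0.56, SE 0.11, adjusted p = 0.00149), a call lost with total-count scaling (-0.04). Their levels differed far more than their changes, and GRX7 remained the more abundant in aged cells at 432 CPM per kb against 31.1 for GRX6. GRX6 overlaps YDL009C by 101 bases on the opposite strand, and that gene was not called (log2 fold change 0.22).

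The glutathione genes moved mostly upward, with 4 of 5 called higher and 1 lower (2 higher and 1 lower with the GC offset). All features had 32.7% higher and 30.8% lower (27.5% and 32.8% with the GC offset). GTT1 (chrIX:423809-424513), a glutathione S-transferase of the endoplasmic reticulum, stood at 35.3, 32.7 and 32.7 CPM in young and 64.3, 68.3 and 68.1 CPM in aged libraries. This was a 1.99-fold increase with little spread between replicates (log2 fold change 1.00, SE 0.07, adjusted p = 2.13e-06). GTT1 and HYR1 are neighbours that converge, with 189 bases between their coding sequences, and both rose. GSH1, which catalyses the first and limiting step of glutathione synthesis, was called lower (log2 fold change -0.46, SE 0.07, adjusted p = 0.000226), from a range of 63.1 to 70.4 CPM in young to 47.7 to 48.8 CPM in aged libraries. With total-count scaling it was 0.06 and not called. GSH2, which completes the synthesis, was called higher (0.21, adjusted p = 0.0421), as were GLR1, the glutathione reductase (0.26, adjusted p = 0.0369), and GTT2, a second S-transferase (0.49, adjusted p = 0.00646). The calls of GSH2 and GLR1 were each lost on leaving out any library other than young replicate 1, and GSH2 also missed the threshold with DESeq2's size factors (adjusted p = 0.0513) and Wald test (0.0522). With the GC offset neither GLR1 (0.14) nor GTT2 (0.16) was called.

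Among the repair enzymes, SRX1 (chrXI:278281-278664) had the largest increase of all 38 members. It encodes sulfiredoxin, which restores overoxidized Tsa1. It was also the least abundant member per kb in young cells, at 2.26, 2.42 and 3.15 CPM, and stood at 5.87, 5.82 and 4.95 CPM in aged libraries (log2 fold change 1.08, SE 0.17, adjusted p = 0.000307). The aged libraries all lay above the young ones, although the 95% confidence interval of 0.71 to 1.46 was wide. Both methionine sulfoxide reductases were called lower. MXR1 (chrV:234937-235491), the cytosolic enzyme, stood at 158, 173 and 166 CPM in young and 97.8, 114 and 94.7 CPM in aged libraries (log2 fold change -0.70, SE 0.09, adjusted p = 7.5e-05). MXR2 (chrIII:62776-63282), the mitochondrial enzyme, stood at 99.1, 124 and 109 CPM in young and 81.9, 97.1 and 72.6 CPM in aged libraries (log2 fold change -0.40, SE 0.11, adjusted p = 0.0110). With total-count scaling MXR1 (-0.19) was not called and MXR2 turned to 0.12, also without a call.

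The regulators moved little. YAP1 was called lower by 0.22 on the log2 scale (adjusted p = 0.0181), within 106 to 117 CPM in young and 93.3 to 96.5 CPM in aged libraries, and SKN7 was called higher by 0.32 (adjusted p = 0.0182), within 19.9 to 24.7 CPM in young and 26.6 to 30.9 CPM in aged libraries. The YAP1 call was lost without young replicate 2 (adjusted p = 0.0527) or aged replicate 1 (0.0595), 2 (0.0580) or 3 (0.0505), and its value turned to 0.30 with total-count scaling. The SKN7 call was lost without aged replicate 1 (0.0557) or 3 (0.0804) and with the GC offset (0.159). Of the oxidoreductases, MCR1, the mitochondrial NADH-cytochrome b5 reductase, was called higher (log2 fold change 0.24, adjusted p = 0.0221), a call lost without young replicate 1 (0.0689), without any of the aged replicates (0.0561 to 0.0655) and with the GC offset (0.742). The old yellow enzymes OYE2 (0.13, adjusted p = 0.137) and OYE3 (-0.23, adjusted p = 0.387) were not called. OYE3 had the largest SE of all members (0.22), from 6.08 to 11.6 CPM in young and from 5.98 to 7.68 CPM in aged libraries, and its value turned to 0.11 without young replicate 2.

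Cytosolic and mitochondrial enzymes were then set side by side. Of the 19 cytosolic members 4 rose, 9 fell and 6 were not called, with a median log2 fold change of -0.21. Of the 8 mitochondrial members 3 rose (PRX1, TRR2 and MCR1), 2 fell (GRX5 and MXR2) and 3 were not called, with a median of 0.11. Over all features the median was 0.02, with 32.7% called higher and 30.8% lower. The cytosolic median stayed below the mitochondrial one under every scaling, but the sign of each depended on it. Total-count scaling gave 0.31 for the cytosolic and 0.62 for the mitochondrial members, against 0.54 for all features, and the GC offset gave -0.48 and -0.24, against -0.02. The called counts under total-count scaling were 10 higher and 5 lower of 19 in the cytosol and 5 higher of 8 in mitochondria, against 68.7% higher and 8.32% lower over all features.

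Summed over members and scaled per kb of coding sequence, the cytosolic set stood at 19350, 26436 and 21452 CPM per kb in young and 13703, 15084 and 13099 CPM per kb in aged libraries. The mitochondrial set stood at 1484, 1884 and 1732 CPM per kb in young and 1477, 1638 and 1454 CPM per kb in aged libraries. With TMM scaling the cytosolic sum was lower in every aged library, whereas the mitochondrial sums overlapped. With total-count scaling the lowest young (17339) and the highest aged (17272) cytosolic sums nearly met, and the mitochondrial sums were higher in every aged library, from 1330 to 1479 CPM per kb in young and 1782 to 1875 CPM per kb in aged libraries. Mitochondrial members made up 7.08 ± 0.41% of both sets together in young and 9.84 ± 0.13% in aged cells (SD, n = 3), from 6.65% to 7.47% in young and 9.73% to 9.99% in aged libraries. Being a share within a library, this value does not move with library scaling. Abundant cytosolic genes carried it. With TMM scaling TRX1 and TRX2 accounted for 71.3% of the difference between the young and aged cytosolic sums. These with AHP1 and SOD1 accounted for 97.5%. Unlike the share, these parts depend on the scaling, and with total counts the mean cytosolic sums were 18624 and 16670 CPM per kb. Without TRX1 and TRX2 the share was 14.8 ± 0.4% in young and 17.2 ± 0.5% in aged cells. Without all 4 genes, a choice made after the values were seen, it was 27.8 ± 1.1% in young and 26.7 ± 0.9% in aged cells (SD, n = 3), and the groups overlapped. In bulk RNA, fewer cells of a type and less RNA per cell cannot be told apart.

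Mitochondrial enzymes were also compared with their cytosolic counterparts within each library, as the log2 ratio of the counts of the 2 genes, which is free of scaling between libraries. The GC offset was not applied to these ratios. The ratio was higher in aged cells for 7 of the 8 pairs compared. SOD2 to SOD1 went from -3.06, -2.97 and -2.89 in young to -2.04, -2.15 and -1.99 in aged libraries, an increase of 0.91. PRX1 to TSA1 went from -4.24, -4.08 and -4.18 to -3.33, -3.32 and -3.48, an increase of 0.78. TRR2 to TRR1 went from -3.71, -4.12 and -3.99 to -3.14, -3.17 and -3.27, an increase of 0.75. These 3 ratios had no overlap between young and aged libraries, and the mitochondrial transcript remained the scarcer of the pair.

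The ratio of TRX3 to the cytosolic thioredoxins rose as well, by 0.71 against TRX1 and by 0.51 against TRX2, while TRX3 itself was not called. MXR2 to MXR1 rose by 0.30, from -0.67, -0.49 and -0.60 to -0.26, -0.23 and -0.38. These genes differ in GC content, at 48.7% for MXR2 and 36.4% for MXR1. With the GC offset the log2 fold change of MXR1 was -0.48 and that of MXR2 lay below it, the reverse of the main order. The monothiol glutaredoxins gave opposite answers by partner. GRX5 to GRX4 rose by 0.44, from 0.57, 0.60 and 0.60 to 0.99, 1.16 and 0.93. GRX5 to GRX3 was the only pair whose ratio fell, by 0.42, from 0.30, 0.33 and 0.32 to -0.13, 0.01 and -0.20. In all 8 pairs the young and aged libraries did not overlap. Single features had no overlap in 70.1% of cases, and no share was computed for ratios of other gene pairs. Every batch moved the same way within a pair, from 0.82 to 1.02 for SOD2 to SOD1 and from -0.52 to -0.32 for GRX5 to GRX3. These ratios follow from the changes of the paired genes given before and are not separate support for them. An exact two-sided permutation test gave p = 0.1 for each pair, also 0.1 after adjustment over the 8 pairs, which is the smallest value that 3 against 3 libraries allow. The pairs that share TRX3 or GRX5 are not independent of each other.

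**Figure D3:**
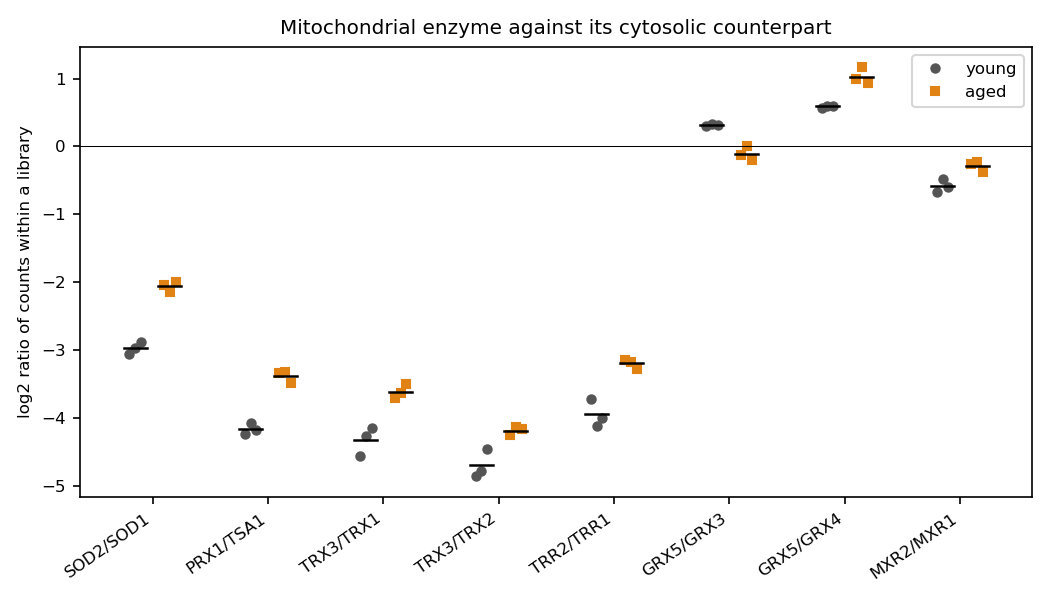
Log2 ratio of the count of a mitochondrial gene to that of its cytosolic counterpart within each library, for 8 pairs, in young (circles) and aged (squares) libraries with the mean as a bar. The squares lie above the circles for 7 pairs and below them for GRX5 to GRX3, by 0.91 at most (SOD2 to SOD1) and by -0.42 for GRX5 to GRX3.

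The members were also divided by level, a split chosen after the values were seen. Of the 20 members with a mean level of at least 100 CPM, 1 was higher and 12 were lower with TMM scaling, but 10 were higher and 5 lower with total-count scaling. Of the 18 members under 100 CPM, 13 were higher and 3 were lower with TMM scaling, and 13 were higher and 1 lower with total-count scaling. Over the whole table TMM scaling gave 344 higher (22.1%) and 805 lower (51.7%) of 1557 features at or above that level. Below it, 1863 were higher (35.8%) and 1276 lower (24.55%) of 5198. Total-count scaling gave 824 higher (52.9%) and 298 lower (19.1%) above and 3815 higher (73.4%) and 264 lower (5.08%) below. With the GC offset 0 of the 20 members were higher and 16 lower, against 16.3% and 54.6% of all features at that level. Of the 18 members, 10 were then higher and 5 lower, against 30.8% and 26.3%. Per kb the order in young cells was led by TRX2, TRX1, AHP1, SOD1 and TSA1, from 7157 down to 1564 CPM per kb, and these 5 genes made up 73.6 ± 1.7% of the summed level of all members in young and 66.3 ± 0.7% in aged cells (SD, n = 3). In aged cells the same 5 still led, with SOD1 at 1626, AHP1 at 1517 and TSA1 at 1510 CPM per kb, levels whose libraries overlapped. The plot of level against change shows the members among all features.

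**Figure D4:**
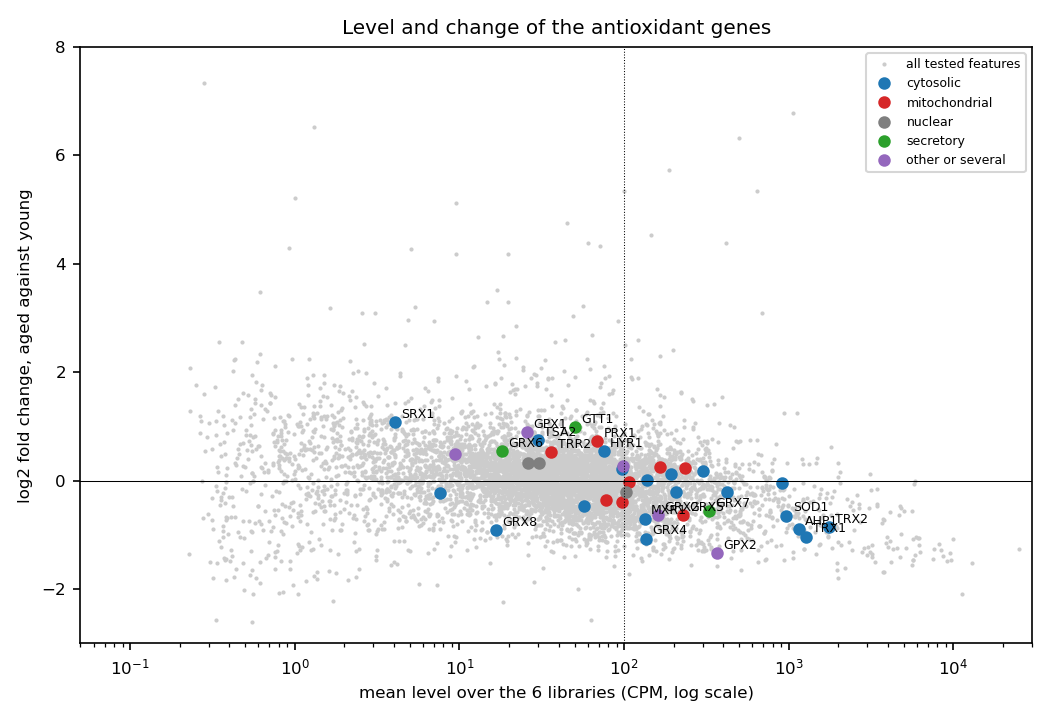
Mean level over the 6 libraries (CPM, log axis) against log2 fold change in aged cells for the 38 members, coloured by compartment, over all 6755 features tested (grey). The dotted line marks 100 CPM. To its right 1 member was called higher and 12 lower with TMM scaling, as plotted, against 22.1% and 51.7% of all features there. Total-count scaling gave 10 higher and 5 lower, and the GC offset 0 higher and 16 lower. Genes with a change of at least 0.5 in size that were called are named.

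Genes outside the system that serve the same pathways were counted from fixed lists. The share of all features to set beside each list was 32.7% higher and 30.8% lower. Both catalases, which also remove hydrogen peroxide, were called higher. CTT1, the cytosolic catalase, rose from 21.4 ± 4.6 to 42.4 ± 3.5 CPM (SD, n = 3, log2 fold change 0.99, SE 0.13, adjusted p = 0.000118). CTA1, the peroxisomal catalase, went from 12.0 ± 0.3 to 14.2 ± 0.8 CPM (log2 fold change 0.24, adjusted p = 0.0415), a call lost with DESeq2, with the replicate block and on leaving out any library. Of the 15 genes that supply NADPH to the reductases, 11 were higher and 1 lower, with a median log2 fold change of 0.40. Among them GND2, the minor 6-phosphogluconate dehydrogenase, rose from 3.61 ± 0.29 to 35.6 ± 2.4 CPM (3.30, SE 0.10, adjusted p = 5.16e-09), and SOL4, a 6-phosphogluconolactonase, rose from 12.0 ± 1.0 to 46.7 ± 2.1 CPM (1.96, SE 0.08, adjusted p = 6.32e-08).

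Of 10 other Yap1 targets 6 were higher and 4 were not called, against 32.7% higher and 30.8% lower of all features. HBN1, which resembles nitroreductases, had the largest change (1.50, SE 0.19, adjusted p = 0.000103). The list of Yap1 targets shares CTA1 with the catalases and YCF1, called higher, with the genes of glutathione turnover. Of 13 tested genes of glutathione turnover and transport 4 were higher, 2 were lower and 7 were not called. Of 8 genes for the metal and cytochrome c partners of Sod1, Sod2 and Ccp1, 2 were higher and 4 lower. Their median log2 fold change was -0.52. CYC7, the minor cytochrome c, rose from 49.3 ± 10.7 to 109.7 ± 9.8 CPM (1.15, SE 0.13, adjusted p = 5.22e-05). CYC1, the other cytochrome c, fell from 77.6 ± 10.6 to 46.9 ± 5.9 CPM (-0.73, SE 0.115, adjusted p = 0.000352).

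Totals lay between 29230292 and 41650202 estimated counts per library. Counting error and the spread between replicates were not separated. Alpha-specific genes summed to 4443 to 5439 CPM in young and 3461 to 3785 CPM in aged libraries, far above a-specific genes at 32.3 to 39.4 CPM and 38.4 to 41.6 CPM. Mating-type genes shifted between the groups, since 4 of 7 a-specific genes were called higher, with AGA2 (1.96), ASG7 (1.65) and MFA1 (1.26) all at 3.05 CPM or less in every library, and 2 of 5 alpha-specific genes were lower, with MF(ALPHA)2 at -1.58, and 1 was higher. Genes made mainly in daughter cells were checked because daughters can remain in a device. Of 10 such genes 6 were higher and 1 lower in aged libraries, against 32.7% higher and 30.8% lower of all features. Their sums were 1112 to 1193 CPM in young and 1313 to 1440 CPM in aged libraries. Their part in the changes of the antioxidant genes was not tested. The members had a median GC content of 41.4%, against 39.6% over the tested features with a known GC content, and its part was tested only through the GC offset.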

How the data were processed

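Per the submitters' processing notes, reads were handled with bcl2fastq, cutadapt 2.6, STAR 2.7.6a and featureCounts (Subread 1.6.2) on the R64 build. Their settings, the annotation and the strand setting are not given in the sources used here. The authors deposited estimated counts per feature, not normalized, of which 54.3% to 59.5% per library were not whole, and these expected counts were rounded before testing. Fold changes here were not shrunk, unlike those of the authors, who used DESeq2 with shrinkage.

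Features were filtered with filterByExpr (minimum count 10), scaled with TMM and fitted with edgeR 4.0.16 in R 4.3.3 (glmQLFit and glmQLFTest), with group as the only term. P-values were two-sided and adjusted over all 6755 features. The SE was derived from the F statistic. TMM factors were 0.896, 0.765 and 0.854 in young and 1.21, 1.15 and 1.24 in aged replicates 1 to 3, and the common biological coefficient of variation was 0.0873. CPM are scaled by TMM. Within-library ratios used a prior count of 0.5. The edgeR fit was checked on simulated counts that held no shift in composition, so that check does not bear on the choice of scaling.

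The labels give same-numbered young and aged replicates a shared batch, so the numbers pair the samples, and their deviations from the group means correlated at 0.126, 0.334 and 0.122 in batches 1 to 3. Alternatives were DESeq2's size factors and Wald test (1.42.0), total-count scaling, other filters, a replicate block, a GC offset, a threshold of 0.01 and leaving out each library. The sums under total-count scaling, the level split under total-count scaling and the GC offset, and the share without abundant genes were added after seeing the data. All 38 members matched RefSeq's R64 annotation (86.0% of features did), from which positions, coding lengths and sequences were read. Paralogs were aligned with Biopython 1.88.

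Members and gene lists were chosen with earlier results of these data known. Every member is accounted for. Per-library values are given for called members with a log2 fold change of at least 0.5 in size and for members of the pairs. Values of list genes are given from a change of at least 1, with both catalases and CYC1. No molecular identifiers were used, so counts are not independent molecules.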

Additional observations from a re-analysis of the deposited data

How the results depend on the processing

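Most values kept their direction and their side of the threshold. Leaving out 1 library in turn gave 9 to 13 members called higher, against 26.7% to 34.1% of all features. The threshold of 0.01 gave 9, for which no share of all features was counted. With total-count scaling, which moved the median of all features to 0.54, 23 members were higher and 6 lower and the median of the members was 0.48. The cytosolic members then had 10 higher, 5 lower and a median of 0.31, and the mitochondrial members 5 higher, 0 lower and a median of 0.62. With the GC offset the medians were -0.31, -0.48 and -0.24 for all, cytosolic and mitochondrial members. With the replicate block added to that offset they were again -0.31, -0.48 and -0.24. In each, 4 mitochondrial members were lower, against 32.8% and 34.6% of all features. At 0.01 there was 1 lower mitochondrial member.

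Total-count scaling turned the log2 fold changes of CCP1 (0.49), TSA1 (0.47), TRX3 (0.18), TRR1 (0.30), GRX3 (0.31), GSH1 (0.056), MXR2 (0.12), YAP1 (0.30) and OYE3 (0.31) positive. The GC offset, without and with the replicate block, turned those of SOD2 (-0.10 and -0.089), CCS1 (-0.32 and -0.32), GRX1 (-0.036 and -0.035) and OYE2 (-0.14 and -0.14) negative. CCS1, near 0, was also negative with DESeq2's size factors (-0.00072) and Wald test (-0.00077). Leaving out 1 library gave -0.023 to 0.048 for CCS1, -0.077 to 0.00068 for CCP1 and -0.41 to 0.11 for OYE3.

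Catalases called higher numbered 1 with DESeq2's size factors, its Wald test, the replicate block and each library left out (1 to 1). With total-count scaling 0 genes of NADPH supply were lower, and 11 genes of glutathione turnover were higher and 1 lower. In the same setting 10 other Yap1 targets were higher, and 1 metal or cytochrome c partner was lower. Of all features 68.7% were then higher and 8.32% lower. Leaving out 1 library gave 0 to 2 lower genes of NADPH supply and 1 to 2 of glutathione turnover. The replicate block, which pairs young and aged libraries by batch, gave 16 members higher and 17 lower, against 34.8% and 32.4% of all features, adding SOD2, GRX1, TRX3 and GRX3 and changing no other member's call. No pair ratio changed direction under its alternatives, which were a prior count of 2, the replicate block and leaving out each library. The GC offset was not among them. The cause of these shifts was not tested. With 3 libraries per group, the members near the threshold (DOT5, TRR1, GLR1, GSH2, YAP1, SKN7 and MCR1) depended on single libraries.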
